A study of Mus musculus with 8 samples.

Results

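Of 11518 nuclei retained from mouse hippocampus, 821 (7.13%) were dentate granule nuclei that carried transcripts of at least 3 of the 8 genes Rasef, Lepr, Glra2, Cdhr1, Tex15, Plppr1, Myo5b and Gpr139, and are called panel-positive nuclei here. A retained nucleus had 500 to 7000 genes, under 2% mitochondrial molecules and 1000 to 70000 ATAC counts. A panel-positive nucleus also had at least 1 unique molecule (UMI) of Prox1, at most 1 of Gad2 and 0 of Fibcd1. They made up 16.9% of the 4861 nuclei with Prox1 detected, the others being 4040.

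The nuclei came from wild-type C57BL/6J pups at postnatal day 21, male by the study's methods, whose hippocampus was taken fresh. Dams were 8 weeks old and ate a moderate folic acid diet of 2 mg/kg (MF) or a high folic acid diet of 20 mg/kg (HF), from 2 weeks before mating through pregnancy and lactation. RNA and open chromatin (ATAC) were read in the same nuclei, with 2 libraries per diet. Where 4 values are given, they are those of MF1, MF2, HF1 and HF2 in that order. How many pups went into a library was not stated, so p-values between diets measure only the spread between these libraries.

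Dentate granule neurons are the main excitatory cells of the dentate gyrus, and new ones are added after birth. A newborn granule neuron passes from a progenitor expressing Eomes to an immature stage marked by Dcx, Sox11, Igfbpl1 and Calb2, and then switches on mature genes such as Calb1. Prox1 encodes the transcription factor that specifies and maintains granule identity, Gad2 marks inhibitory neurons and Fibcd1 marks CA1 pyramidal neurons.

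Panel-positive nuclei numbered 213, 167, 239 and 202 in the 4 libraries. No cell barcode was shared between libraries among them, against 76 among all retained nuclei. Their median depth was 8654, 9346, 9749 and 10457.5 UMIs, with a median ATAC count of 20640 to 29074. They were deeper than the other Prox1-detected nuclei, whose median was 7329.5 UMIs. The share of granule-gate nuclei (Prox1 detected, Gad2 at most 1, Fibcd1 0) that met the panel rule was 0.781% below 2000 UMIs, 6.48% from 2000 to 4000 and 36.3% at 16000 or more. The share rose with depth. Thinning to 4000 UMIs was used for shares of nuclei and for RNA ratios between groups, and thinned values are given for some of these. The ATAC tests and the tests of single genes between diets were made without thinning.

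Doublet scores (Scrublet) over 0.05 were found in 30.1% of panel-positive nuclei against 20.9% of all granule-gate nuclei. The caller's own cut-off marked 0 nuclei in HF2, so it was not used, and results were recomputed without the nuclei scoring over 0.05. MF1 stood apart in haemoglobin transcripts and HF1 in Ttr and Ptgds, genes of choroid plexus and meninges. Hba-a1 stood at 229 CPM (UMIs of a gene scaled to an equal total in every library) in panel-positive nuclei of MF1 and at 34.1 to 53.3 in the other libraries. Ttr stood at 71.3 CPM in HF1 and at 0 to 20.1 elsewhere.

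The panel-positive nuclei carried granule markers. All 10 of 10 granule neuron markers were detected, and 812 nuclei (98.9%) held at least 3 of them, against 90.6% of the other Prox1-detected nuclei. Their sum was 4459 to 4828 CPM over the libraries, between the immature gate (2663 to 2977) and the mature gate (6198 to 6636) defined below. The granule list holds Prox1, which was required in all of these groups, and Dsp, a gene of the mature gate. Part of these counts and sums was therefore set by the choice of nuclei. Median depth was 9662 UMIs in panel-positive and 7329.5 in other Prox1-detected nuclei, and its part in the marker counts was not tested. Inhibitory markers summed to 1059 to 1326 CPM, against 2904 to 3014 in the other Prox1-detected nuclei, for which the rule set no limit on Gad2. At least 3 of them were held by 23.9% of the panel-positive nuclei, 22.6% of the other Prox1-detected nuclei and 18.5% of the mature gate. Oligodendrocyte markers summed to 1064 to 1254 CPM and 46.4% of the panel-positive nuclei held at least 3 of them, against 45.2% in the mature gate. In the immature gate, with a median depth of 3652 UMIs, 11.8% held at least 3 inhibitory markers and 21.0% at least 3 oligodendrocyte markers. The sums there were 766 to 1229 CPM and 1586 to 2437 CPM. The part of these markers in the results below was not tested.

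The 4 genes proposed as markers of a Rasef-Lepr-Cdhr1 type, Rasef, Lepr, Cdhr1 and Tex15, were not carried by most of these nuclei. At least 3 of the 4 were seen in 16 nuclei (1.95%), 2 in 100, 1 in 392 and none in 313 (38.1%). Their summed level was 73.1 to 95.6 CPM in panel-positive nuclei and 10.4 to 16.2 in the other Prox1-detected nuclei, a difference that the rule itself sets. The group is therefore described by its rule, and its leading genes were Plppr1, Myo5b and Glra2. Of the 559 nuclei that held exactly 3 panel genes, 261 (46.7%) held those and no other.

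Plppr1 encodes a phospholipid phosphatase-related membrane protein linked to neurite growth, and was detected in 799 panel-positive nuclei (97.3%). Myo5b, an actin motor that carries recycling endosomes, was detected in 685 (83.4%). Glra2, a glycine receptor subunit of the young brain, was detected in 573 (69.8%). The remaining genes were sparse. Lepr, the leptin receptor, was found in 217 nuclei (26.4%), Tex15, a protein of male meiosis, in 193 (23.5%), and Rasef, a Rab-like GTPase, in 121 (14.7%). Cdhr1, a cadherin-related protein known from photoreceptors, was found in 111 (13.5%), and Gpr139, an orphan receptor coupled to G proteins, in 104 (12.7%).

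The levels of the panel genes varied over the libraries, most of all those of the sparse genes. Plppr1 stood at 336, 365, 311 and 373 CPM, Myo5b at 167, 206, 191 and 183, and Glra2 at 124, 152, 119 and 119. Lepr stood at 25.8, 35.5, 29.9 and 29.2 and Tex15 at 30.1, 32.0, 23.3 and 23.5. Cdhr1 stood at 21.8 in MF1 and at 10.1, 10.8 and 8.34 in the others. Rasef stood at 17.9, 17.2, 14.3 and 12.1 and Gpr139 at 17.0, 15.7, 13.6 and 9.10. Rasef, Gpr139, Glra2 and Tex15 had both HF libraries below both MF libraries, and the share of all genes in that order was not counted. The order is therefore not read as a result on diet. In the other granule-gate nuclei Plppr1 stood at 125 to 167 CPM and Lepr at 3.69 to 7.10. The rule chose on these genes, so no test was made.

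**Figure D1:**
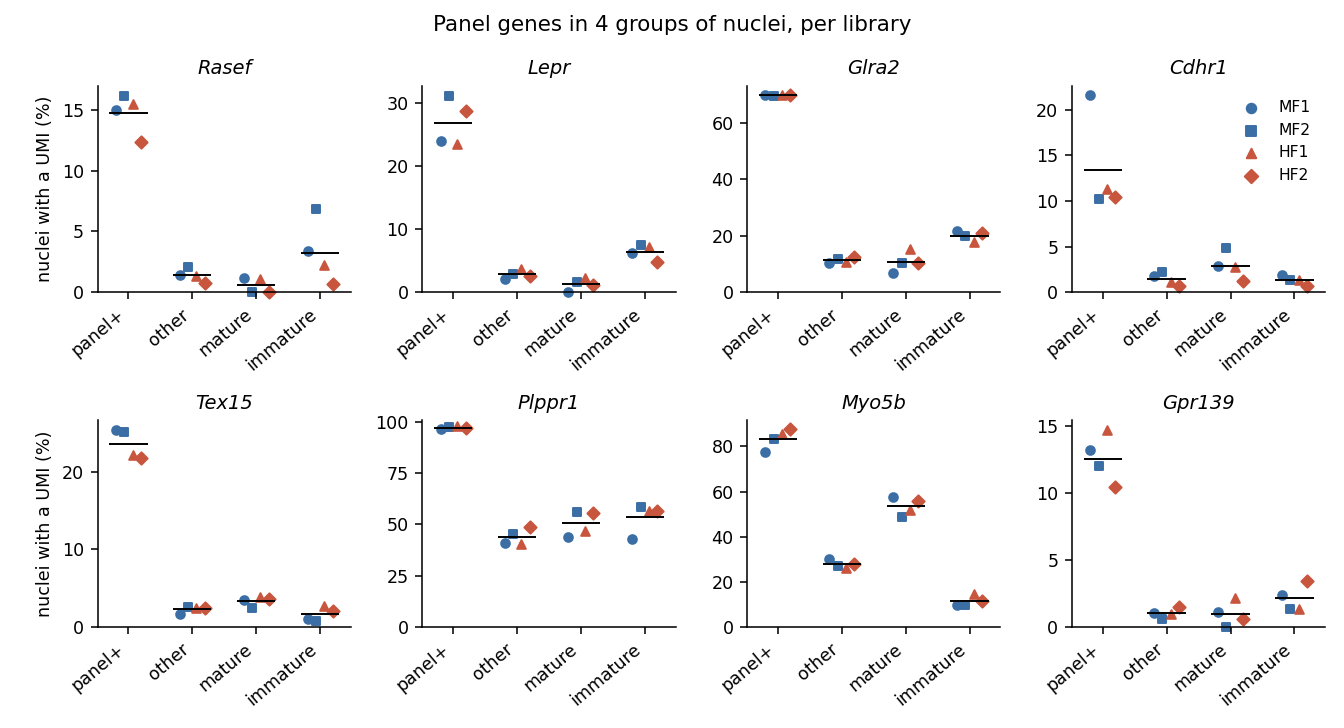
Share of nuclei with at least 1 UMI of each panel gene (y axis, percent) in panel-positive nuclei, other granule-gate nuclei, and the mature and immature gates, 1 point per library and a line at the mean of 4. Plppr1 reached 97.3% of panel-positive nuclei while Gpr139 reached 12.7%, and the panel-positive nuclei stand highest in each gene because the rule selected on them.

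Nuclei just outside the rule, with 2 panel genes in the granule gate, numbered 986 and had a median of 8566.5 UMIs and a mean of 4.54 panel UMIs. Nuclei just inside, with 3 panel genes, numbered 559 and had 9463 UMIs and 7.46 panel UMIs. There were 199 nuclei with 4 panel genes and 63 with 5 or more. Free RNA in droplets can also give such UMIs. Among 718 oligodendrocyte nuclei (median 6415 UMIs), 28.6% held Plppr1, 15.2% Myo5b and 2.09% Lepr, and 4.74% met the count of 3 panel genes. Among 808 microglia (median 1908 UMIs), 0.866% did. The share of Lepr in panel-positive nuclei was 26.4%, under a rule that counted it.

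Whether panel genes occurred in the same nuclei was described by leaving 1 gene out, choosing granule-gate nuclei with at least 3 of the other genes, and reading the gene left out. Each of the 8 genes was then more often detected in chosen nuclei than in other granule-gate nuclei in 4 of 4 libraries. The panel was chosen with these data in view, so this is a description and no independent support for the grouping. Left-out Lepr was found in 15.6% to 21.2% of the chosen nuclei per library, against 4.46% to 5.87% of the others. Left-out Myo5b was found in 54.3% to 70.6% against 34.5% to 37.7%. Nuclei were also thinned to 4000 UMIs and the granule gate applied again. This left out the 24.6% of granule-gate nuclei under that depth, and also nuclei that lost their Prox1 UMIs on thinning. In the thinned nuclei Lepr, Glra2, Tex15, Plppr1, Myo5b and Gpr139 stayed higher in 4 of 4 libraries, Rasef in 3 and Cdhr1 in 1. Some of these rested on few nuclei. Thinned Gpr139 in HF2 was found in 1 of 58 chosen nuclei against 7 of 636 others. Thinned Tex15 in MF2 was found in 3 of 54 against 19 of 467. Thinned Lepr was found in 11.4% to 20.3% against 2.99% to 4.26% of the others. Thinned Cdhr1 spanned 0% to 4.29% against 0.945% to 3.15%, so its co-occurrence was not seen at equal depth.

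To place the group along granule maturation, 2 reference gates were cut from the other granule-gate nuclei by RNA. The mature gate held 653 nuclei with at least 2 of Dsp, Lct, Trhr and Glis3 and at most 1 of the immature genes. The immature gate held 729 nuclei with at least 2 of Igfbpl1, Sox11, Draxin, Calb2, Eomes and Prokr2 and at most 1 of the mature genes. Both gates were cut at the ends, and the panel rule read none of these genes, so a group of mixed maturity would also lie between them. Among panel-positive nuclei 164 (20.0%) met the mature criteria, 277 (33.7%) the immature criteria, 51 (6.21%) held at least 2 genes of both sets and 329 (40.1%) at most 1 of each. The shares among other granule-gate nuclei were 18.8%, 21.0%, 1.93% and 58.2%.

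Genes of immature granule neurons were higher in panel-positive nuclei than in the mature gate and lower than in the immature gate. Outside the gate genes, the immature list had a median log2 ratio of 0.71 over the mature gate, with 12 of 16 genes higher in 4 of 4 libraries and 1 lower. Over all 9096 genes with enough UMIs, 20.2% were higher and 15.9% lower in 4 of 4 libraries, and the median was 0.02. Against the immature gate the list had a median of -0.87, with 1 gene higher and 13 of 16 lower in 4 of 4 libraries. Over all 8159 genes there, 15% were higher and 32.8% lower and the median was -0.10. These comparisons were not tested, since RNA chose all of the nuclei, and both share the panel-positive nuclei.

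Dcx, a microtubule protein of migrating young neurons, had a mean log2 ratio of 1.78 over the mature gate and -0.98 over the immature gate. Dpysl3, a growth cone protein, had 1.80 and -1.02, and Elavl2, an RNA-binding protein of neurons, 1.19 and -1.24. Sox4, a transcription factor of new neurons, had 0.80 and -2.11. Nrn1, whose product neuritin is induced by activity, went the other way, with -0.59 and 0.31. Neurod1 and Neurod2, which drive granule differentiation, had 0.41 and -0.36 over the mature gate, neither in 4 of 4 libraries.

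Genes of mature granule neurons showed the reverse order. Their median log2 ratio outside the gate genes was -0.32 over the mature gate, with 12 of 16 genes lower and 1 higher in 4 of 4 libraries, and 0.81 over the immature gate, with 14 of 16 higher and 0 lower. Calb1, the calcium buffer of mature granule cells, had -0.49 and 1.07, Tanc1, a synaptic scaffold, -0.75 and 0.81, and Npy1r, a neuropeptide Y receptor, -0.66 and 1.09. Grin2a, the NMDA receptor subunit of the mature synapse, had -0.48 and 0.90, and Camk2a, a kinase of synaptic plasticity, -0.41 and 0.91. Rasgrp1 was the one gene of the list higher than in the mature gate in 4 of 4 libraries, with 0.36.

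These sizes differed after thinning. Nuclei were thinned to 4000 UMIs and the rule applied again, which left out shallower nuclei, 7.43% of the panel-positive ones, 1.07% of the mature gate and 55.0% of the immature gate. In the thinned nuclei the immature list stood at 1.27 over the mature gate and -0.29 over the immature gate, and the mature list at -0.73 and 0.65. Against all other Prox1-detected nuclei the mature list went from 0.13 to -0.28 on thinning, and the immature list from 0.12 to 0.57.

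The level of the immature list also differed with the number of panel genes. Its 16 genes summed to 2500 to 2643 CPM over the libraries in granule-gate nuclei with 2 panel genes, 2800 to 3089 with 3, 3150 to 3466 with 4 and 3785 to 4737 with 5 or more. These ranges did not overlap. The mature list of 17 genes summed to 6994 to 8436 with 2 panel genes, 7191 to 7780 with 3, 6452 to 8048 with 4 and 5612 to 7405 with 5 or more, with overlapping ranges. In nuclei with no panel gene, whose median depth was 4407 UMIs, the mature list stood at 3996 to 5000. The immature list stood there at 2460 to 2880, which overlaps the nuclei with 2 and with 3 panel genes, so its level did not order these groups down to 0 panel genes. These levels are a description of nuclei sorted by the rule's own genes.

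**Figure D2:**
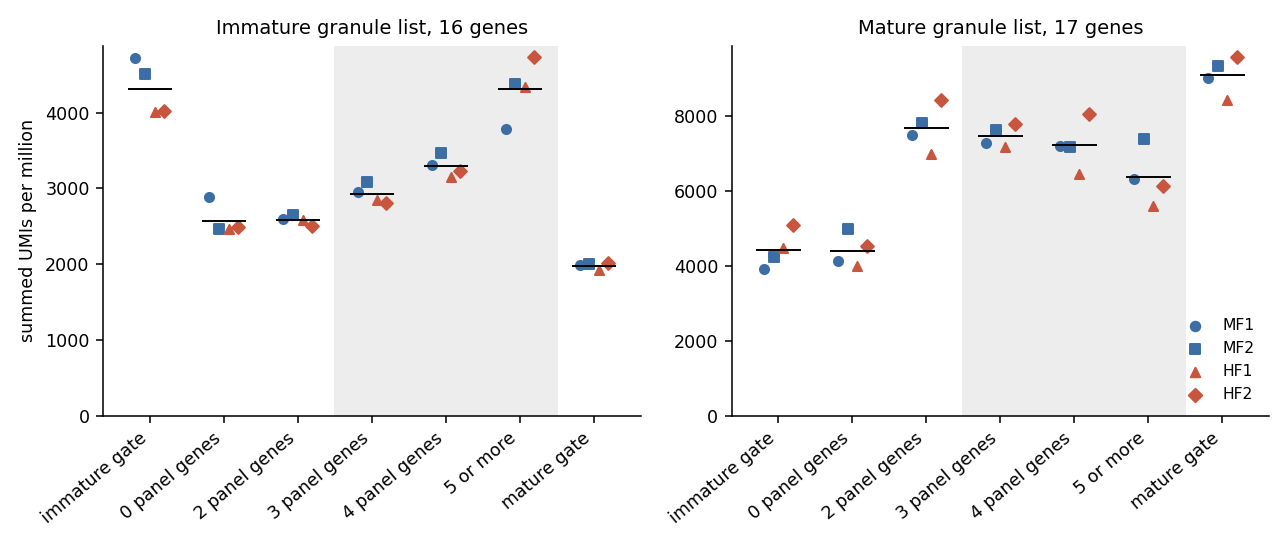
Summed CPM (y axis) of the immature and mature granule lists, gate genes left out, in the 2 gates and in granule-gate nuclei by number of panel genes, 1 point per library and a line at the mean. Grey marks the panel-positive nuclei, in which the immature list runs from 2800 with 3 panel genes to 4737 with 5 or more, while the mature list spans 5612 to 8048.

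By the rule for named genes, the gene furthest above the mature gate was Sema3c, a secreted semaphorin. It stood at 179, 137, 138 and 177 CPM, against 2.20, 14.2, 4.41 and 16.5 in the mature gate, a mean log2 ratio of 4.36 ± 1.33 (SD, n = 4). No library of one group reached the level of the other. St8sia2, the polysialyltransferase that modifies NCAM in young neurons, had 3.0 ± 0.60, and Cd24a, a surface glycoprotein of immature neurons, 2.99 ± 0.77. Fam163a had 2.57 ± 0.57, Adamts18, an extracellular protease, 2.39 ± 0.45, and Mtss1, a membrane-bending actin regulator, 2.13 ± 0.46. Vip, a neuropeptide of interneurons, was uneven, at 39.7, 2.03, 32.7 and 17.4 CPM. Furthest below the mature gate were Il1r1, the interleukin-1 receptor (-1.62 ± 0.23), Itga7, an integrin (-1.60 ± 0.29), and Akain1 (-1.54 ± 0.28).

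Against the immature gate, Trpc6, a cation channel of the dentate, stood at 175, 143, 180 and 181 CPM against 55.4, 42.5, 47.2 and 40.6, a log2 ratio of 1.85 ± 0.22 (SD, n = 4). Trpm3, another cation channel, stood at 1098, 1546, 1533 and 1478 against 365, 450, 453 and 685, and the ranges did not overlap. Ano2, a calcium-gated chloride channel, had 2.06 ± 0.72, Kcng3, a potassium channel subunit, 1.65 ± 0.36, and Gpc4, a glypican, 1.52 ± 0.28. Furthest below was 2610307P16Rik (-3.57 ± 0.77), followed by Tac2, a neuropeptide gene (-2.79 ± 0.25). The 15 also held the neuropeptide gene Gal (-2.62 ± 0.53) and the synaptotagmins Syt2 (-2.71 ± 0.83) and Syt9 (-2.15 ± 0.22). Sema3c stood below the immature gate by -2.10 ± 0.25, so its level lay between both gates.

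The rule used ATAC only as the total count of a nucleus. Accessibility was tested at each gene, by summing ATAC counts of peaks over the gene body and 2 kb upstream. Against the mature gate, edgeR's quasi-likelihood test with Benjamini-Hochberg adjustment called 1089 genes higher (4.27% of 25516) and 1191 lower (4.67%). Against the immature gate it called 3600 higher (14.2% of 25424) and 3146 lower (12.4%). Without nuclei scoring over 0.05 for doublets, 918 and 946 were called against the mature gate and 3367 and 2910 against the immature gate. Both comparisons share the panel-positive nuclei, and DESeq2 called 567 and 3547 genes in all. The total of 2280 against the mature gate was 1382 without MF1, 1429 without HF1, 1344 with at least 4 panel genes and 429 without the library block. Under the last 2 of these the total of 6746 against the immature gate was 3170 and 4014.

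Accessibility was then read at the immature genes. Outside the gate genes, 6 of 16 were called higher than in the mature gate and 0 lower, and 1 of 16 higher and 7 lower than in the immature gate. The 6 were Sox4 (log2 fold change 0.61, SE 0.12), Neurod1 (0.41, SE 0.11), Gap43, a growth cone protein (0.40, SE 0.09), Dpysl3 (0.39, SE 0.09), Stmn1, a microtubule regulator (0.32, SE 0.09), and Elavl2 (0.29, SE 0.09). Dcx had 0.42 (SE 0.17) and was not called, with an adjusted p of 0.114 in edgeR's quasi-likelihood test. Robo1, an axon guidance receptor, was the one called higher than in the immature gate (0.19, SE 0.06).

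Of the mature genes, 9 of 17 outside the gate genes were called lower than in the mature gate and 0 higher, and 14 of 17 higher than in the immature gate and 0 lower. Tanc1 had -0.49 (SE 0.05) over the mature gate and 0.51 (SE 0.06) over the immature gate, and Grin2a -0.44 (SE 0.04) and 0.96 (SE 0.05). Npy1r had -0.51 (SE 0.16) and 1.16 (SE 0.22). Calb1 had -0.42 (SE 0.15), not called, and 1.70 (SE 0.23), the highest of the list over the immature gate. Slc12a5, the chloride exporter of mature neurons, had 0.12 (SE 0.08) and 0.58 (SE 0.09), and was called against the immature gate. The mature list shares Trhr and Npy1r with the peptide receptor list.

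**Figure D3:**
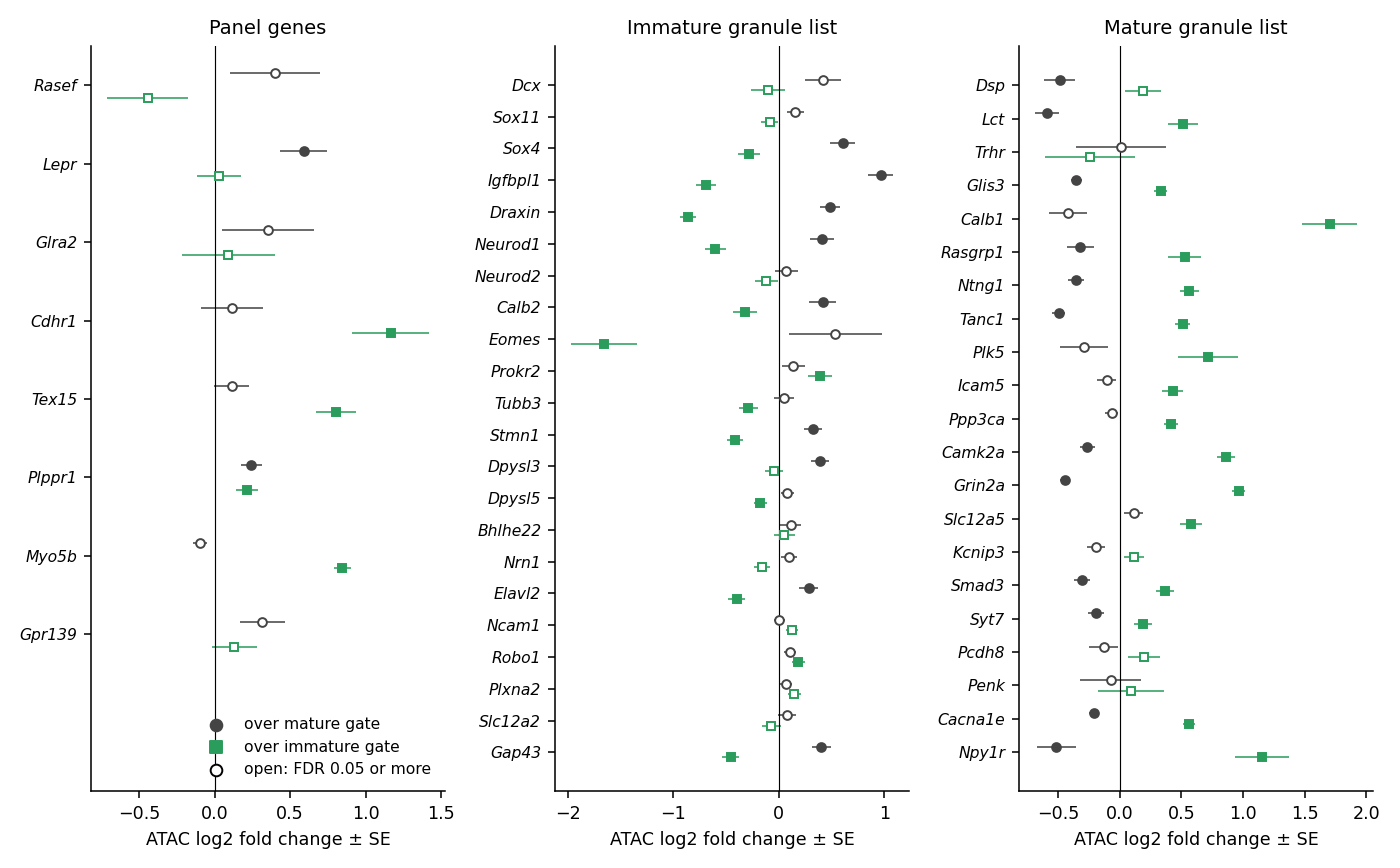
Log2 fold change of gene-level ATAC counts in panel-positive nuclei (x axis, with SE from the fit over 4 libraries) over the mature gate (circles) and the immature gate (squares) for the panel genes and both maturation lists, filled where edgeR's adjusted p was under 0.05. Most immature genes lie right of 0 over the mature gate and left of 0 over the immature gate, as for Sox4 at 0.61 and -0.28, and most mature genes the reverse, as for Grin2a at -0.44 and 0.96.

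Among the panel genes themselves, Lepr was called more accessible than in the mature gate, Cdhr1, Tex15 and Myo5b than in the immature gate, and Plppr1 than in both. The nuclei were chosen by RNA of these same genes, and ATAC was read in the same nuclei. Calls at panel genes, here and below, are therefore a description and no independent support for the grouping. Lepr (chr4:101717404-101815352, GRCm38, + strand) had 29.5, 22, 21.9 and 28.6 ATAC CPM, against 16.7, 17.5, 12.9 and 20.3 in the mature gate, higher in 4 of 4 libraries. Its log2 fold change was 0.59 (SE 0.15, adjusted p = 0.00435 by edgeR's quasi-likelihood test), and 0.03 (SE 0.14) over the immature gate. The call against the mature gate was lost without MF1 (adjusted p = 0.0616), in DESeq2 (0.102), with at least 4 panel genes (0.0768) and without the library block (0.100), while the log2 fold change there was 0.52 to 0.60. Plppr1 (chr4:49059273-49340259, + strand) had 0.24 (SE 0.07) over the mature gate and 0.21 (SE 0.07) over the immature gate, with adjusted p of 0.0148 and 0.0192. The first was lost when any 1 library was left out (adjusted p of 0.0523 to 0.0704), and the second without MF1 (0.256) or MF2 (0.102). DESeq2 made neither call (0.175 and 0.156), and neither held with at least 4 panel genes (0.230 and 0.259). Without the library block neither held (0.228 and 0.118 by edgeR's quasi-likelihood test). In these settings the log2 fold change of Plppr1 was 0.21 to 0.25 over the mature gate and 0.14 to 0.22 over the immature gate. Within 2 kb of its start the values were 0.69 and 0.10, the second not called.

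Cdhr1 (chr14:37077857-37098347, - strand) had 9.7, 17.5, 11.3 and 12.1 ATAC CPM, against 6.5, 5.5, 6.9 and 3.7 in the immature gate, and the ranges did not overlap. Its log2 fold change was 1.17 (SE 0.25) over the immature gate and 0.11 (SE 0.20) over the mature gate. Tex15 (chr8:33516738-33585582, + strand) had 0.80 (SE 0.13) and 0.11 (SE 0.11), and Myo5b 0.85 (SE 0.06) and -0.10 (SE 0.05). All 3 were called against the immature gate and none of them against the mature gate. The Tex15 call rested on peaks inside the gene, since within 2 kb of its start the value was -0.091. Rasef, Glra2 and Gpr139 were called against neither gate, with 0.40 (SE 0.30), 0.35 (SE 0.30) and 0.32 (SE 0.15) over the mature gate and -0.45 (SE 0.27), 0.09 (SE 0.31) and 0.13 (SE 0.15) over the immature gate.

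Against all other Prox1-detected nuclei, 2384 genes were called higher (8.21% of 29047) and 2031 lower (6.99%) in gene-level ATAC, a comparison added after seeing the data. Lepr, Cdhr1, Tex15, Plppr1, Myo5b and Gpr139 were among those called higher, and Rasef and Glra2 were not called. Of the 4040 other Prox1-detected nuclei, 3466 passed the granule gate, so the comparison group was not limited to granule neurons. The part of other cell types in these calls was not tested.

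The families and pathways of the panel genes were read in full. Where a called gene was one of the rule or gates, the count without such genes is given as well. Over all genes 4.27% were called higher and 4.67% lower than in the mature gate, and 14.2% and 12.4% against the immature gate. In the leptin pathway 3 of 20 genes were called higher in ATAC than in the mature gate and 2 lower, or 2 of 19 and 2 without Lepr. The 3 were Lepr, Socs2, a feedback inhibitor of cytokine signals (0.51, SE 0.12), and Pik3r1, the regulatory subunit of PI3 kinase (0.44, SE 0.07). Foxo1 (-0.48, SE 0.08) and Mtor (-0.24, SE 0.06) were called lower. Against the immature gate 1 was called higher and 7 lower, among them Stat3 (-0.57, SE 0.07). Stat3, Stat5b, Socs2 and Pik3r1 also stood lower in RNA than in the immature gate in 4 of 4 libraries, at -1.25, -1.61, -0.92 and -1.35. Of 15 pathway genes with enough UMIs, Lepr left out, 7 were lower and 1 higher in 4 of 4 libraries. Over all genes 32.8% were lower and 15% higher. The pathway median was -0.11, against -0.10 over all genes.

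In the Plppr family Plppr3 had an ATAC log2 fold change of 0.69 (SE 0.17) over the mature gate and -0.55 (SE 0.14) over the immature gate, both called, and RNA ratios of 2.07 and -1.32. Plppr4 had 0.11 (SE 0.13) and 0.69 (SE 0.15), the second called. Plpp3, a lipid phosphatase abundant in glia, had 0.67 (SE 0.12) and -0.81 (SE 0.10), both called. No glycine receptor gene of 8 was called against the mature gate. Of 15 peptide and orphan receptor genes, 8 were called higher than in the immature gate and 0 lower, with Npy1r the highest of those called, and 3 were lower than in the mature gate, Npy1r, Npy2r (-0.63, SE 0.15) and Oprm1 (-0.28, SE 0.08). Without Gpr139, Trhr and Prokr2, genes of the rule or gates, 7 of 12 were called higher than in the immature gate and 0 lower.

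Of the motor and Rab genes of recycling endosomes, 3 of 14 were called higher, led by Myo5b, and 3 lower than in the immature gate, and 1 of 13 in each direction against the mature gate. Without Myo5b and Rasef, 2 of 12 were higher and 3 lower than in the immature gate, and 1 of 11 in each direction against the mature gate. These counts are near the shares over all genes, 14.2% higher and 12.4% lower against the immature gate. In the cadherin-related list 4 of 6 were called higher than in the immature gate and 1 lower, or 3 of 5 and 1 without Cdhr1. Against the mature gate Pcdh15 was called higher (0.27, SE 0.05) and Cdhr3 lower (-0.37, SE 0.08). Of 8 meiotic genes, Tex15 was the one called higher than in the immature gate and Meiob the one called lower. Without Tex15, 0 of 7 were called higher. Sycp1 and Mael had 0 UMIs in panel-positive nuclei. Of 28 folate genes, 1 was called higher and 1 lower than in the mature gate, and 2 higher and 3 lower than in the immature gate, at or below the shares over all genes.

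Of 20 granule transcription factors, 5 were called higher in ATAC than in the mature gate and 0 lower, against 4.27% and 4.67% of all genes. They were Neurod1, Neurod6 (0.69, SE 0.19), Nfib (0.14, SE 0.04), Nfix (0.20, SE 0.04) and Sox5 (0.19, SE 0.05). Against the immature gate 4 of the 20 were called higher and 8 lower, against 14.2% and 12.4% of all genes. Nfia, Nfib, Nfix and Zbtb20, which act in granule differentiation, were among those called lower, at -0.23, -0.33, -0.45 and -0.17. Prox1 had -0.00 (SE 0.09) over the mature gate and 0.03 (SE 0.09) over the immature gate, so no difference at Prox1 was detected. Sox5 reversed within 2 kb of its start, at -0.15.

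The genes with the most extreme RNA ratios were read in ATAC as well, as a description. They were chosen by RNA of the same nuclei, with the minimum of 100 UMIs applied in the group where the gene was higher. Of the 15 highest over the mature gate, 10 of 14 tested were called higher in ATAC and 0 lower, led by St8sia2 (1.57, SE 0.24) and Cd24a (1.56, SE 0.23). Of the 15 lowest, 9 were called lower and 0 higher. Of the 15 highest over the immature gate, 10 were called higher and 0 lower, with Kcng3 at 0.99. All 15 of the lowest were called lower. Over all genes the shares were 4.27% higher and 4.67% lower against the mature gate and 14.2% and 12.4% against the immature gate. Those shares are over genes not held to the UMI minimum, so they are no like baseline for the named genes. The nuclei of both readouts are the same nuclei, so the agreement is no independent support.

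At the level of single regions, with a peak called in all 4 libraries, 3468 regions were called higher (3.64% of 95372) and 2302 lower (2.41%) than in the mature gate. DESeq2 called 980 higher and 259 lower, and without nuclei scoring over 0.05 edgeR called 2641 and 1402. Against the immature gate 12304 were called higher (13.4% of 91741) and 13172 lower (14.4%). Against the other Prox1-detected nuclei 7064 were called higher (4.71% of 149921) and 7341 lower (4.9%), and 4583 and 7698 without nuclei scoring over 0.05. Leaving out 1 library lowered the total against the other Prox1-detected nuclei from 14405 to 8003 without MF1, 8733 without MF2, 7535 without HF1 and 9128 without HF2. It lowered the mature-gate total from 5770 to 2744, 3357, 3606 and 3645 in the same order. With at least 4 panel genes the totals were 3899 and 2353, and 9719 of 25476 against the immature gate. Of the regions higher than in the mature gate 42.0% lay outside annotated genes and 32.6% in introns, against 31.6% and 39.5% of all tested. Regions over multi-copy sequence, such as that over Gm42418 and AY036118, were among the smallest p-values and are uncertain.

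The regions at Tspan9, Fam163a and Insm1 were more accessible in panel-positive nuclei than in the mature gate. Total ATAC counts per library were 4686536 to 5857508 in panel-positive nuclei, 3773412 to 4394483 in the mature gate and 3425002 to 4354750 in the immature gate. In an intron of Tspan9 (chr6:127992665-127993565), the counts were 82, 88, 90 and 82, against 3, 0, 8 and 5 in the mature gate and 178, 192, 245 and 169 in the immature gate. No library of one group overlapped another. The log2 fold changes were 4.10 (SE 0.34) over the mature gate and -1.71 (SE 0.12) over the immature gate. In an intron of Fam163a (chr1:156179639-156180559) the counts were 120, 138, 139 and 130 against 26, 31, 27 and 32 in the mature gate, a log2 fold change of 1.89 (SE 0.18). This gene was also among the 15 with the highest RNA ratio. Over the coding sequence of Insm1, a zinc-finger factor of neuronal progenitors, the counts were 147, 110, 142 and 116 against 23, 17, 30 and 40 (1.94, SE 0.19).

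The regions at Lpp and Glis3 were more accessible in the mature gate. In an intron of Lpp (chr16:24780297-24781230) the counts were 16, 28, 21 and 18 against 77, 62, 70 and 55 in the mature gate and 1, 2, 9 and 7 in the immature gate. The log2 fold changes were -1.96 (SE 0.24) and 1.67 (SE 0.52). In an intron of Glis3 (chr19:28502711-28503644), a gate gene, the counts were 82, 71, 92 and 105 against 139, 128, 135 and 144 in the mature gate and 26, 26, 19 and 22 in the immature gate. A region over an exon of Slc38a9 had 80, 97, 103 and 101 counts against 8, 8, 24 and 14 in the immature gate (2.33, SE 0.26) and was not called against the mature gate (0.35, SE 0.17). A region in an intron of Ttc28 had 82, 76, 84 and 60 against 213, 189, 206 and 172 in the immature gate (-1.89, SE 0.12) and stood higher than in the mature gate (1.36, SE 0.23).

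**Figure D4:**
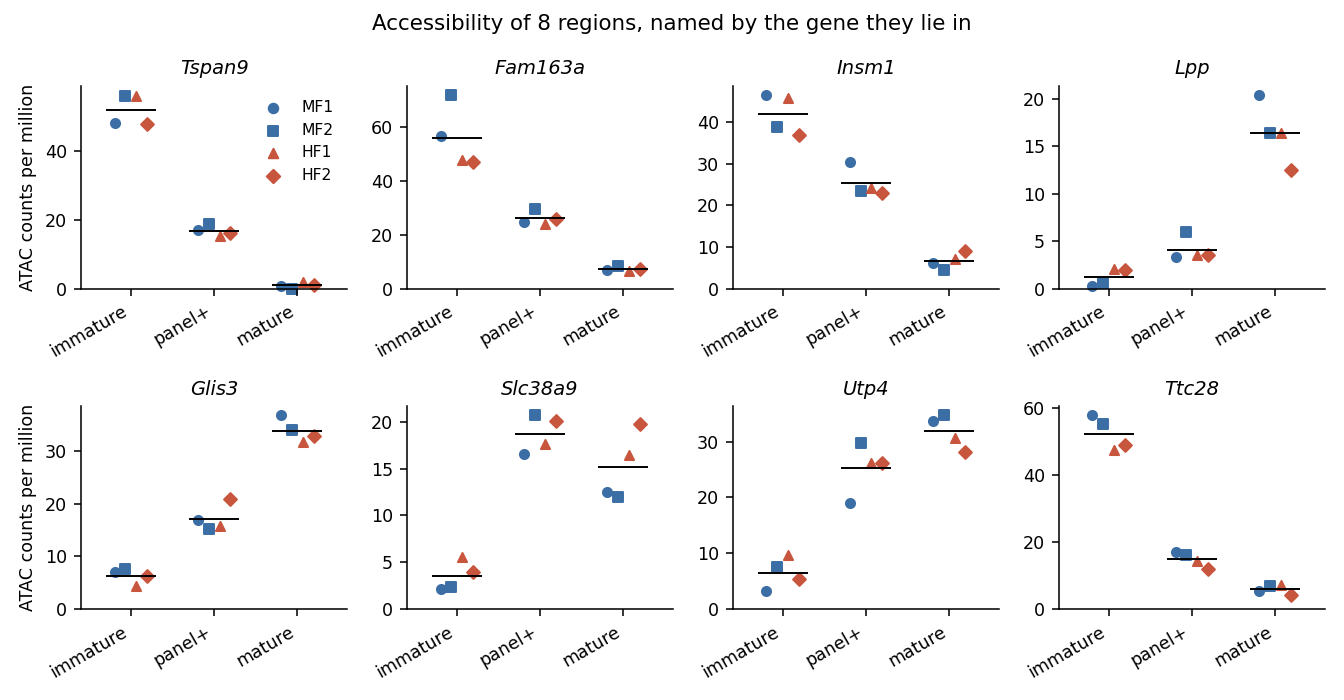
ATAC CPM (y axis) of 8 regions, titled by the gene they lie in, in the immature gate, panel-positive nuclei and mature gate, 1 point per library and a line at the mean. The panel-positive nuclei lie between the gates at Tspan9, with counts of 82 to 90, and at Lpp, with 16 to 28, while Slc38a9 has 80 to 103 counts against 8 to 24 in the immature gate.

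The central 300 bases of 4 of these regions are shown as examples, 2 with more and 2 with fewer counts than in the mature gate, with those of 2 regions over panel genes. They are read from RefSeq's GRCm38.p6 genome on the + strand, with capitals at matches of 8 short motifs searched on both strands, namely the E-boxes CAGATG and CAGCTG, AP-1 TGAGTCA, CRE TGACGT, NFI TTGGCA, MEF2 TATTTAT, RFX GTTGCCA and EGR GCGTGG. A match is a description of letters and not of a bound site. The Fam163a window held none of them.
Tspan9 intron, chr6:127992965-127993264: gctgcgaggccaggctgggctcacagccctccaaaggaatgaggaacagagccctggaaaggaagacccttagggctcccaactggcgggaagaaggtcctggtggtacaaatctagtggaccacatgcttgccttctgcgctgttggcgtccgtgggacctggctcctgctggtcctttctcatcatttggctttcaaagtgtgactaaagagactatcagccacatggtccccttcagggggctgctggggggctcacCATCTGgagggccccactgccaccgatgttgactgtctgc
Fam163a intron, chr1:156179949-156180248: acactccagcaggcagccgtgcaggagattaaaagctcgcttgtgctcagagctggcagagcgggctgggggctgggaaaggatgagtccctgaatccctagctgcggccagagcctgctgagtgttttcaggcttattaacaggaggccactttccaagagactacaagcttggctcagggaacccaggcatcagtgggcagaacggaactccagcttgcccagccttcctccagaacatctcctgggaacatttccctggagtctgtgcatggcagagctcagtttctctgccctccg
Lpp intron, chr16:24780614-24780913: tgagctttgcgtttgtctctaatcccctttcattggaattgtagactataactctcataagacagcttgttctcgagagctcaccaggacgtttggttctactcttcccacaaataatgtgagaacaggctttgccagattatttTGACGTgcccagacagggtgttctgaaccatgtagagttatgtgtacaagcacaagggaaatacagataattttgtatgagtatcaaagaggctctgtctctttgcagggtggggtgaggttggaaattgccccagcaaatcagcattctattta
Glis3 intron, chr19:28503028-28503327: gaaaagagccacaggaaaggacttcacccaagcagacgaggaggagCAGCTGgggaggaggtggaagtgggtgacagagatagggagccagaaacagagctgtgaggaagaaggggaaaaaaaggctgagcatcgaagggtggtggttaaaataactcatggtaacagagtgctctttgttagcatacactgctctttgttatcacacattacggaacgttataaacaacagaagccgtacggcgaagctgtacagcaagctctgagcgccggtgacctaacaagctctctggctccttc
Plppr1 intron, chr4:49296501-49296800: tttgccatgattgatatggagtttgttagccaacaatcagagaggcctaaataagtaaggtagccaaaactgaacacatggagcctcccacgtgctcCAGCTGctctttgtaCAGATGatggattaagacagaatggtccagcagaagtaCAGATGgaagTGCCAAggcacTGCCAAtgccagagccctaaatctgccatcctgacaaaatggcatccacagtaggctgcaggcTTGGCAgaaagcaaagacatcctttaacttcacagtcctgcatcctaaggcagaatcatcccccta
Tex15 intron, chr8:33543060-33543359: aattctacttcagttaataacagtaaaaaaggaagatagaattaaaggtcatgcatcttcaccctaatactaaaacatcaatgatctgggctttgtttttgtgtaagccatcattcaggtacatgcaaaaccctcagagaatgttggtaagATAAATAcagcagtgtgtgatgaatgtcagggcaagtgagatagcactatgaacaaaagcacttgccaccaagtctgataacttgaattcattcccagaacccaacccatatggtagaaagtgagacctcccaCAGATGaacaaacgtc

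The Tspan9 window held 1 CAGATG E-box, read as CATCTG on this strand, and the Glis3 window 1 CAGCTG. The Lpp window held 1 CRE core, TGACGT. The Plppr1 window held 2 CAGATG, 1 CAGCTG and 3 NFI cores. The Tex15 window held 1 CAGATG and 1 MEF2 core, read as ATAAATA. Among all tested regions of the mature-gate comparison, 34.7% held CAGATG and 23.2% CAGCTG, so a single match is common.

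The Plppr1 intron region had 83, 82, 72 and 70 counts in panel-positive nuclei against 34, 46, 35 and 19 in the mature gate, a log2 fold change of 0.92 (SE 0.21). It was not called against the immature gate (-0.26, SE 0.18). The region over the Plppr1 start was also called higher than in the mature gate (0.78, SE 0.17), with 83, 89, 121 and 115 counts against 36, 46, 53 and 59. At the Lepr start the counts were 27, 15, 24 and 15 against 4, 8, 3 and 7 (1.55, SE 0.48). The Tex15 region had 24, 21, 36 and 21 counts against 5, 2, 9 and 7 in the immature gate (1.65, SE 0.44), and 30, 33, 28 and 22 in the mature gate. Of 57 regions over panel genes, 4 were called higher and 1 lower than in the mature gate, against 3.64% and 2.41% of all regions. Of 50 tested against the immature gate, 15 were called higher, 9 in Myo5b, 4 in Tex15 and 2 in Cdhr1, and 0 lower, against 13.4% and 14.4% of all regions.

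Motif shares were counted in the regions called, as a description. Against the mature gate, the NFI core was held by 32.6% of the regions higher, 25.3% of those lower and 24.8% of all tested. The AP-1 motif was held by 4.15%, 9.74% and 7.70%, and the MEF2 core by 5.34%, 8.57% and 6.45%. Against the immature gate, AP-1 was held by 11% of the regions higher, 3.77% of those lower and 7.18% of all, and the MEF2 core by 9.02%, 3.45% and 6.09%. The GC content of these groups also differed, at 46.9%, 56.4% and 51.0%, and its part in these shares was not tested.

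Regions that separated the gates were also read by where the panel-positive nuclei lay between them. The regions were chosen in fits without the library that was then read. Regions higher in the mature gate, 14630 to 16054 of them, stood 69.4% to 71.9% of the way from the immature to the mature gate over the 4 libraries. Regions higher in the immature gate, 16155 to 16991, stood 56.6% to 62.7% of the way. Of these regions, 61.9% to 73.1% per library had panel-positive nuclei between both gates, and the rest did not. The place in RNA was 55.2% to 66.5% and 58.8% to 66.2%. The places are medians over regions or genes of 1 library, and the panel-positive nuclei held members of both maturity criteria, so a median does not show that single nuclei are intermediate.

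Next, HF was compared with MF to ask whether the maternal diet moved the number of these nuclei. They made up 17.6% of Prox1-detected nuclei in MF1 (95% Wilson interval 15.6% to 19.9%), 17.3% in MF2 (15% to 19.8%), 16.6% in HF1 (14.8% to 18.6%) and 16.2% in HF2 (14.2% to 18.3%). The intervals cover counting error only. The mean was 17.5% ± 0.254 in MF and 16.4% ± 0.291 in HF (SD, n = 2 each), a difference of -1.08 points. The difference was -2.20 points after thinning to 4000 UMIs, -0.459 over all retained nuclei and -0.440 with at least 4 panel genes. Both HF libraries lay below both MF libraries, and the exact two-sided permutation p was 0.33, the smallest that 2 against 2 libraries allow.

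Within panel-positive nuclei, edgeR's quasi-likelihood test called 0 of 12261 genes (0%) between HF and MF at an adjusted p under 0.05 and a 1.2-fold change, and 259 had an unadjusted p under 0.05. DESeq2 called 1 gene. Leaving out 1 library gave 10 calls without MF1, 20 without MF2, 23 without HF1 and 5 without HF2, in fits where the lone library was taken to vary like the others. Over all granule-gate nuclei, which include the panel-positive ones, 0 of 15784 genes (0%) were called, 268 had an unadjusted p under 0.05, and DESeq2 called 0. With 1 library left out there were 0 calls without MF1, 37 without MF2, 6 without HF1 and 20 without HF2. The panel genes chose the nuclei, so their diet values are given only as the levels above.

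Foxp2, a transcription factor linked to vocal learning, had the smallest p of all genes. Its UMIs in panel-positive nuclei were 15, 14, 116 and 64, with both HF libraries above both MF libraries. The log2 fold change was 2.31 (SE 0.33) and the adjusted p 0.353 by edgeR's quasi-likelihood test. In other granule-gate nuclei it stood at 11.8, 13.5, 18.8 and 24.7 CPM, against 6.55, 7.10, 40.4 and 24.3 in panel-positive nuclei. Grm8, a metabotropic glutamate receptor, had 156, 170, 422 and 438 UMIs (1.10, SE 0.23), with HF above MF in both groups of nuclei. Hba-a1 and Hbb-bt were also among the 10 smallest and were highest in MF1, at 229 and 134 CPM. Col6a1, Slc7a11, Sorcs3, Slc1a3, Gulp1 and Adamts9 completed the 10, all with higher values in both HF libraries and none called. The 10 were picked by their p, so a separation of the diets follows in part from the choice. The share of all genes with both HF libraries above both MF libraries was not counted. Marker lists of other cell types did not all move in the same direction in panel-positive nuclei. The 6 astrocyte markers, which include Slc1a3, summed to 128, 151, 216 and 194 CPM. The 7 inhibitory markers summed to 1095, 1059, 1324 and 1326, and the oligodendrocyte markers to 1064, 1095, 1170 and 1254. These lists had both HF libraries above both MF libraries. The cycling list had both HF libraries below both MF libraries. The CA1, CA3, mossy cell, oligodendrocyte progenitor, microglia, vascular and Cajal-Retzius lists overlapped between the diets. The part of these markers in the diet values was not tested.

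The study reported ribosomal protein genes as a large part of the genes it called between diets in immature and mature granule neurons. Its rank-sum test compared nuclei, whereas libraries are the units here. Ribosomal protein genes took 1.49%, 0.885%, 1.19% and 0.604% of UMIs in panel-positive nuclei. The mean was 1.19% ± 0.428 in MF and 0.899% ± 0.418 in HF (SD, n = 2), and the ranges of the diets overlapped. The exact two-sided permutation p was 0.667. All 79 of 79 genes had a negative log2 fold change, against 48.9% of all genes tested. Their median was -0.32 against 0.01 over all genes tested, and 0 were called. The difference in share was -0.288 points. It ran from -0.591 to 0.0140 points with 1 library left out, the latter without MF1. In the immature gate the share was 2.46%, 1.42%, 1.65% and 0.848% and in the mature gate 1.39%, 0.945%, 1.14% and 0.636%, in the same order of libraries.

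The diet response differed between panel-positive and other granule-gate nuclei at 4 of 14253 genes (0.0281%) by edgeR's quasi-likelihood test of the interaction, and 600 had an unadjusted p under 0.05. These were Ptgds, Ttr, Sorcs3 and Dach1, and DESeq2 called 0. Sorcs3, a neuronal sorting receptor, stood at 99.1, 89.3, 137 and 182 CPM in panel-positive nuclei and at 129, 165, 127 and 161 in the others, an interaction of 0.78 (SE 0.13). Dach1, a transcription factor, stood at 53.7, 82.7, 43.5 and 42.4 against 31.6, 43.4, 45.2 and 48.1, an interaction of -0.96 (SE 0.17). Without nuclei scoring over 0.05 for doublets 4 genes were called, and 0 of them were shared with these. The interaction of Ttr, -2.16 (SE 0.37), turned in sign there (0.071), without HF1 (0.20) and without MF1 (2.68).

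**Figure D5:**
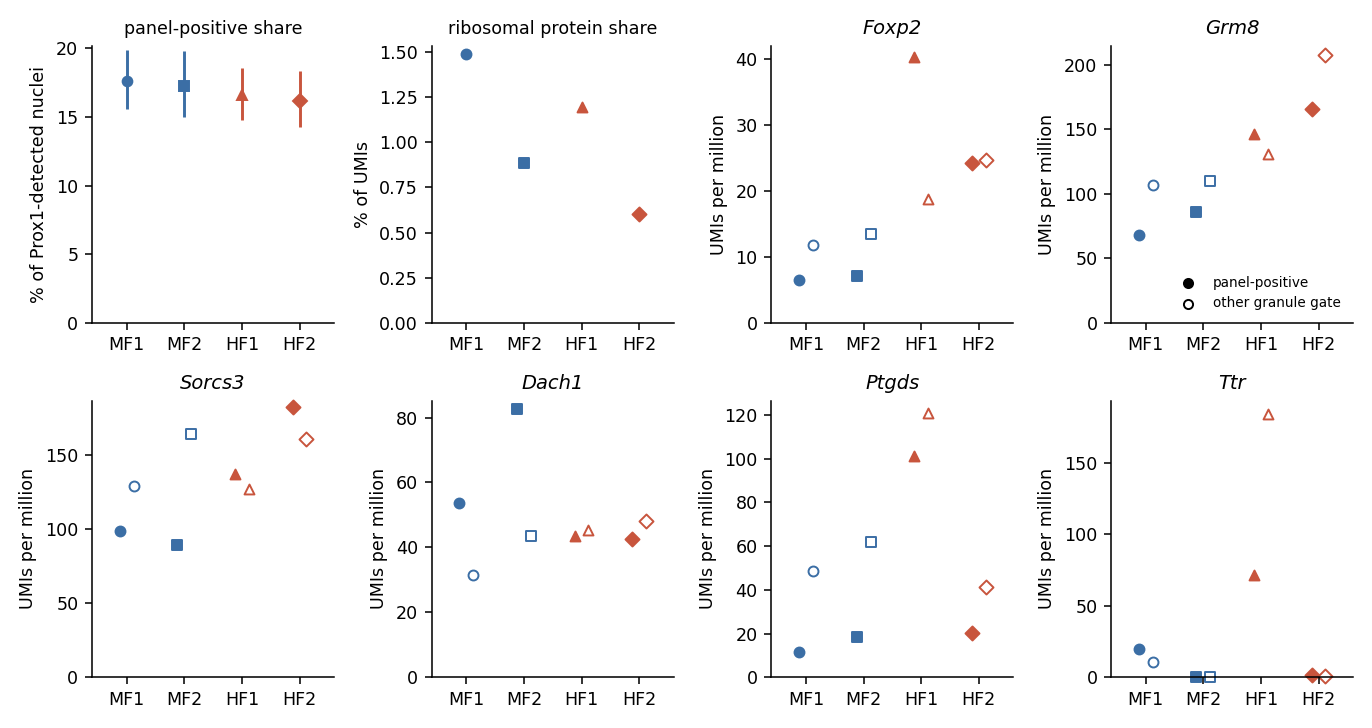
Panel-positive share of Prox1-detected nuclei with its 95% Wilson interval, ribosomal protein share of UMIs, and CPM of 6 genes in panel-positive (filled) and other granule-gate nuclei (open), by library (MF blue, HF red). Foxp2 and Grm8 are higher in both HF libraries, at 40.4 and 24.3 CPM for Foxp2, whereas Ttr and Ptgds are highest in HF1 alone.

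In ATAC, 0 of 104832 regions (0%) were called between HF and MF in panel-positive nuclei by edgeR's quasi-likelihood test, 4637 had an unadjusted p under 0.05 and DESeq2 called 0. The region with the smallest p lay over coding sequence of Nr3c2, the mineralocorticoid receptor, with 66, 46, 8 and 23 counts and a log2 fold change of -2.0 (SE 0.41). Leaving out 1 library gave 1 to 18 called regions. With 2 libraries per diet, no difference was detected in these nuclei by the main test, which does not show that the diets acted alike.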

How the data were processed

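Hippocampal nuclei of 4 libraries, 2 per diet, were profiled by single-nucleus multiome. The authors deposited raw UMI counts per gene and ATAC counts per peak, with peaks called per library, made with Cell Ranger ARC 2.0.1 on mm10. Of the ATAC values 81.1% to 83.1% were even numbers. The submitters' processing notes also name Seurat.

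The members and gene lists were chosen with earlier results of these data known. Of 14297 deposited nuclei, 11518 (80.6%) passed the filters given in the report, which were applied with Python 3.11.15, numpy 2.4.6, scipy 1.17.1 and pandas 2.3.3. Doublets were scored with Scrublet in scanpy 1.11.5 (expected rate 0.03) and not removed in the main results. Panel-positive nuclei held 9775689 UMIs in all, which limits sparse genes.

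Counts were summed per library and group of nuclei. Peaks were merged across libraries (bedtools 2.31.1) into 253748 regions, of which 154785 held a peak in all 4. They were annotated with GENCODE M21, in which 31372 of 32285 symbols matched 1 gene. Sums were tested with edgeR 4.0.16 (R 4.3.3, TMM, filterByExpr, quasi-likelihood, Benjamini-Hochberg adjusted p under 0.05), with library as a block between groups of nuclei. The diet test on RNA also required a 1.2-fold change. SE is the log2 fold change divided by the root of F. RNA of panel-positive nuclei against other groups was not tested. It is given as the log2 ratio of CPM, averaged over libraries, with 1 UMI added to each UMI sum before scaling. The genes for the place between gates were chosen by edgeR fits of RNA between the 2 gates. Shares were compared by an exact permutation test over libraries.

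Named genes were the genes of the rule, those of the lists, the 15 highest and 15 lowest RNA ratios against each gate (at least 100 UMIs, 1 direction in 4 of 4 libraries), genes called between diets, the 10 smallest diet p, and the 10 regions of smallest p in each direction. Alternatives were DESeq2 1.42.0, other size factors, no low-count filter, each library left out, doublet scores over 0.05 left out, and at least 4 panel genes. Thinning was an alternative for shares and RNA ratios, and not for the ATAC tests or the tests of single genes between diets. The fits over all granule-gate nuclei, gene-level ATAC against other Prox1-detected nuclei, the place between gates and the thinned left-out panel were added after seeing the data. Scripts were tested on simulated data.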

Additional observations from a re-analysis of the deposited data

Results flagged for a closer look

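The diet response of 4 genes differed between panel-positive and other granule-gate nuclei by edgeR's quasi-likelihood test of the interaction, each with an adjusted p of 0.0259. Ptgds had a log2 interaction of 1.45 (SE 0.24), with 26, 36, 291 and 53 UMIs in panel-positive nuclei (MF1, MF2, HF1, HF2 in order), against 330, 326, 1023 and 312 in other nuclei. Ttr had -2.16 (SE 0.37), with 46, 0, 205 and 5 UMIs against 73, 2, 1558 and 7, and turned in sign without HF1 (0.20), without MF1 (2.68) and without high doublet scores (0.071). Both were highest in HF1. Sorcs3 had 0.78 (SE 0.13), with 227, 176, 394 and 481 UMIs against 876, 868, 1074 and 1211. Dach1 had -0.96 (SE 0.17), with 123, 163, 125 and 112 UMIs against 214, 229, 382 and 362. With DESeq2 0 of the 4 were called. Of the genes called without HF1 (1), without doublet scores over 0.05 (4) and with at least 4 panel genes (9), 0 were among these 4. Of the genes called without HF2 (6), without MF1 (11) and without MF2 (10), 2 were among them in each case, and all 4 were called with RLE size factors (4 calls) and without a low-count filter (22). Against mature-gate nuclei 5 genes were called and 1 was shared.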

How the results depend on the processing

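Of 157 alternative values of the main comparisons, 60 were counted as moved, 1 as reversed and 96 as neither. The 96 did not all keep the direction or size of the main value. Among them was the ribosomal protein share difference of -0.288 points, which ran from -0.591 to 0.0140 with 1 library left out. Another was the 10250 regions that DESeq2 called against other Prox1-detected nuclei, where edgeR called 14405. The panel-positive share difference of -1.08 points was -0.459 over all retained nuclei, -0.440 with at least 4 panel genes and -2.20 after thinning. The 0 diet calls in panel-positive nuclei became 1 with DESeq2, 16 without a low-count filter and 5 to 23 with 1 library left out. The 4 interaction calls became 0, 22 and 1 to 11, and 9 with at least 4 panel genes. Calls over the granule gate were 0 to 37 and diet ATAC calls 1 to 18 with 1 library left out. With the replicate number as a block, the diet calls were 50 (37 higher, 13 lower) in panel-positive nuclei, 37 over the granule gate and 0 in ATAC. The labels give no shared batch and there are only 2 pairs, so the numbers were not taken to pair the libraries (r of 0.202 across genes in both pairs, equal by construction).

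With at least 4 panel genes, ATAC regions called were 3899 against other Prox1-detected nuclei, 2353 against the mature gate and 9719 against the immature gate, and genes 1344 and 3170. DESeq2 called 1239 regions against the mature gate, and 567 and 3547 genes. Without the library block 429 and 4014 genes were called, and within 2 kb of gene starts 704 and 3529. With 1 library left out, regions called were 7535 to 9128 against other Prox1-detected nuclei and 2744 to 3645 against the mature gate, and genes 1382 to 1663.

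The RNA median of the immature list over the mature gate was 1.27 after thinning. That of the mature list over the mature gate was -0.48 with at least 4 panel genes, -0.37 without high doublet scores, -0.73 after thinning and -0.38 to -0.34 with 1 library left out. Over the immature gate the immature list was at -0.66, -1.11 and -0.29 under the first 3 of these, and the mature list at 1.08 without high doublet scores. Over other Prox1-detected nuclei the immature list was at 0.21 with at least 4 panel genes and 0.57 after thinning, and the mature list at 0.072, reversed to -0.28, and 0.048 to 0.15 with 1 library left out. Within 2 kb of the start, Sox5 reversed over the mature gate (-0.15) and Pcdh15 (-0.19), Syt2 (0.0150), Syt7 (-0.26) and Tex15 (-0.091) over the immature gate. The interaction of Ttr reversed without HF1 (0.20), without MF1 (2.68) and without high doublet scores (0.071), and spanned -2.23 to 2.68 with 1 library left out. The cause was not tested.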
